A study of Mus musculus with 14 samples.

Results

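Acyl-CoA thioesterases hydrolyse fatty acyl-CoA to the free fatty acid and coenzyme A, and the 9 genes of this family considered here were chosen by name: Acot1, Acot2, Acot3, Acot4, Acot7, Acot8, Acot9, Acot12 and Acot13. A gene was measured where a probe set of the array (a group of probes summarised as 1 value) carried exactly 1 gene symbol. Where a gene had several such probe sets, the brightest over all arrays was used. This gave 8 of the 9 genes among 22180 measured genes, since the probe set annotated to Acot8 carries a second symbol as well, and Acot8 was therefore not analysed here. Liver RNA of 14 male C57BL/6J mice, a common inbred strain, was measured on Affymetrix whole-transcript arrays. Of these, 7 mice belonged to a group deprived of sleep (mice 1, 2, 3, 5, 6, 10 and 13) and 7 served as controls (mice 4, 7, 8, 9, 11, 12 and 14). The series concerns the effect of 1 sleep deprivation of 6 h on glucose tolerance and liver fat. Of the methods its design lists (gentle handling, changes of cage and a platform in water), the labels do not name the one used for these arrays, nor the age of the mice, their feeding or the hour of collection.

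The thioesterases fall into families of unrelated fold that share a reaction. The type I enzymes have an alpha/beta hydrolase fold and sit in different compartments, Acot1 in the cytosol, Acot2 in mitochondria and Acot3 and Acot4 in peroxisomes, while Acot7, Acot8, Acot9, Acot12 and Acot13 belong to families that are not homologous to them. In the liver the type I genes are known as targets of PPARA, the nuclear receptor that responds to fatty acids and drives the fasting programme, and the free fatty acids that the enzymes release can in turn act on that receptor. In the mouse annotation of RefSeq, 6 type I genes stand next to each other on chromosome 12 in the order Acot2, Acot1, Acot4, Acot3, Acot5 and Acot6, with no other protein-coding gene between them. Their coding sequences are close copies, so that the probe sets of neighbours may share signal, and this was not tested because probe sequences were not used here.

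The stretches of 250 bases before the start of Acot1, Acot2, Acot3 and Acot4 are shown because these 4 neighbours varied together between mice. This was clearest in the sleep-deprived group, while the difference between the groups was not the same for the 4 genes. Varying with Acot1 was not particular to its neighbours, since Acot12 on chromosome 13 followed it about as closely as Acot2 did. The stretches come from RefSeq (GRCm38.p6), 5′ to 3′, and capitals mark matches on either strand to 5 motifs. The motifs were the hexamer AGGTCA of nuclear receptor sites, its direct repeat with 1 base between the copies (AGGTCANAGGTCA, the PPARA type of element), the hexamer AGAACA of glucocorticoid receptor sites, the E-box CACGTG and the D-box TTATGTAA bound by clock output factors.
Acot2, chr12:83987611-83987860, plus strand: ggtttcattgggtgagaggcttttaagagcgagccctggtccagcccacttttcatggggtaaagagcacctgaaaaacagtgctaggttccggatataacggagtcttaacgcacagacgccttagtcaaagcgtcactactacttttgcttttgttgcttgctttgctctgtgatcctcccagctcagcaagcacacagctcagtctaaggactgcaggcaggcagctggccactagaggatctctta
Acot1, chr12:84009252-84009501, plus strand: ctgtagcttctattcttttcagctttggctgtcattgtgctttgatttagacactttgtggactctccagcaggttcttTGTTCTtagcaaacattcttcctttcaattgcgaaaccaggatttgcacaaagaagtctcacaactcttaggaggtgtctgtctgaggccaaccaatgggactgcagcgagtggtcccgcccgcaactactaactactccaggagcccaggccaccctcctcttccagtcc
Acot4, chr12:84038129-84038378, plus strand: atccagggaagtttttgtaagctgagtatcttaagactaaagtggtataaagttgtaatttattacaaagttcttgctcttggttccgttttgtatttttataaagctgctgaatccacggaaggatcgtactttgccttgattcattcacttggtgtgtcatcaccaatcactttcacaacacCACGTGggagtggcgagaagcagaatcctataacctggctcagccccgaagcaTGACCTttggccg
Acot3, chr12:84051894-84052143, plus strand: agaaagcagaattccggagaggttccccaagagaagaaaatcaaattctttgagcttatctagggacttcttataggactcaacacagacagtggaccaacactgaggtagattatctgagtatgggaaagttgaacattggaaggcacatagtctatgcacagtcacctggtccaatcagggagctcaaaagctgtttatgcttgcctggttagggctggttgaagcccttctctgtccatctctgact

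The Acot1 stretch held 1 match, to AGAACA on the reverse strand at position -171, counted from the first base of the gene as 0. The Acot4 stretch held an E-box at -66 and AGGTCA on the reverse strand at -13, and the printed stretches of Acot2 and Acot3 held no match. Just after the gene start, outside the printed stretch, the Acot3 window held AGGTCA on the reverse strand at position 18. From a second listed start of Acot3, this match was at position 11. In whole windows of 300 bases around the start, which reach past the printed stretches, AGGTCA was present in 16.2% of 32544 mouse promoters, AGAACA in 18.9%, the E-box in 7.17%, the D-box in 0.931% and the direct repeat, every match of which also holds AGGTCA, in 0.0399%. Windows were given for 8 of the 9 genes, that of Acot13 not being in the table used. Among those not printed, Acot12 held AGAACA at -206 and AGGTCA at -110, both on the reverse strand. The windows of Acot7, Acot8 and Acot9 held no match. These matches describe letters in a short window and say nothing of binding.

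The liver samples carried hepatocyte RNA, the mean log2 level of 8 hepatocyte markers such as albumin lying between 12.68 and 12.77 on every array. Across the series 1886 of 22180 genes (8.5%) differed between the groups, 861 (3.88%) being higher and 1025 (4.62%) lower after sleep deprivation (limma, Benjamini-Hochberg adjusted p under 0.05). Array medians lay between 3.443 and 3.491 on the log2 scale. The pathway lists below were brighter on average, with mean levels of at least 5.44 on every array. Fitted by themselves, the genes at or above the median level gave 2259 calls (1046 higher, 1213 lower), more than the 1886 of all genes. The 8.5% set beside each list is thus a low base for bright genes, and no share among genes of like level was computed. Of 8 sinusoidal endothelial markers 3 were higher and 0 lower (limma; 4 higher and 1 lower at an unadjusted p under 0.05, which 19.4% of all genes reached), and the list's mean level ran from 6.94 to 7.29 in controls and from 7.17 to 7.64 after sleep deprivation. Of 8 Kupffer cell markers 1 was higher, with list means of 5.76 to 7.01 and 5.95 to 6.73. Of 8 stellate cell markers 1 was higher, with list means of 6.30 to 6.75 and 6.38 to 6.76. Of 8 pericentral hepatocyte markers 1 was lower, Lgr5, with list means of 8.811 to 8.937 and 8.605 to 8.849. Of 6 measured periportal hepatocyte markers 1 was higher, Pck1, and 1 lower, Hal, with list means of 9.844 to 9.988 and 9.757 to 10.002. The part of these cells in the results below was not tested, and in whole tissue fewer cells of a type and less RNA per cell cannot be told apart.

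Among the 8 measured thioesterases 1 was higher and 1 lower after sleep deprivation, Acot1 and Acot13, and 6 did not pass the threshold. Of all genes, 3.88% were called higher and 4.62% lower. The median log2 difference of the 8 was 0.074, beside -0.0048 over all genes. These genes differed much in how variable they were between mice of the same group. The pooled within-group SD was 0.60 for Acot1, 0.56 for Acot2, 0.73 for Acot3 and 0.43 for Acot4, and each of these was above that of at least 99.4% of all measured genes. Outside that cluster, Acot9 also varied much, with an SD of 0.36, above that of 98.7% of all measured genes. For Acot7, Acot12 and Acot13 it lay between 0.11 and 0.13.

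**Figure D1:**
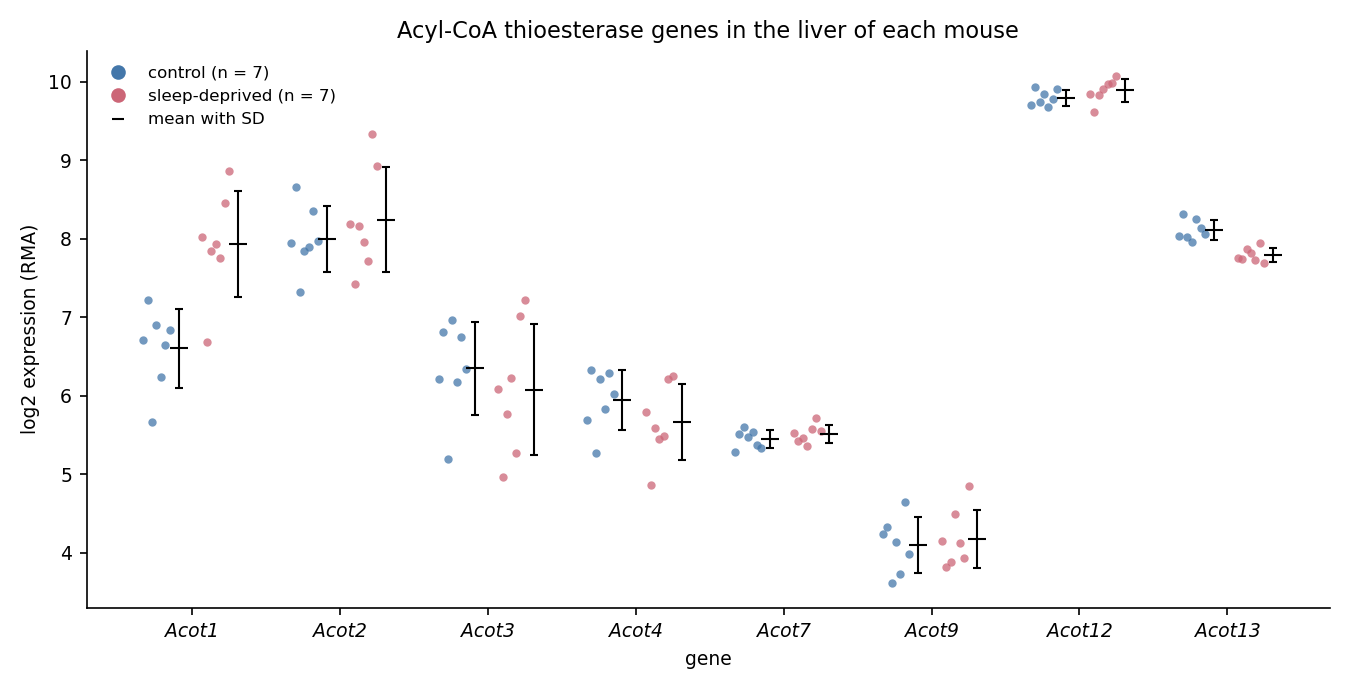
Log2 expression (vertical axis) of the 8 measured thioesterase genes (horizontal axis) in each mouse, with the group mean and SD beside the points. Acot1 is higher in 6 of 7 sleep-deprived mice than in any control and Acot13 lower in all 7, and levels of different genes are not comparable because each has its own probes.

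Acot1, the cytosolic type I enzyme, rose. Its log2 level in controls ran from 5.66 through a median of 6.71 to 7.22, and after sleep deprivation from 6.68 through 7.93 to 8.86. All 7 sleep-deprived mice were above the control mean and 6 above the highest control, the exception being mouse 2 at 6.68, so that the groups overlapped. The mean was 6.60 ± 0.51 in controls and 7.93 ± 0.68 after sleep deprivation (SD, n = 7 each), a log2 difference of 1.33 ± 0.26 (moderated SE) or 2.52-fold (limma, adjusted p = 0.00185).

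Acot2, which encodes the mitochondrial counterpart of Acot1, did not pass. Its log2 level ran from 7.32 through 7.95 to 8.66 in controls and from 7.42 through 8.16 to 9.33 after sleep deprivation. Mice 10 and 13 alone were above the highest control and 4 of 7 above the control mean. The log2 difference was 0.24 ± 0.24, with a 95% interval from -0.26 to 0.74 (limma, adjusted p = 0.673).

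The peroxisomal pair Acot3 and Acot4 did not pass, and their intervals were wide. Acot3, which acts on long-chain acyl-CoA, ran from 5.19 through 6.34 to 6.97 in controls and from 4.97 through 6.08 to 7.22 after sleep deprivation, so that the sleep-deprived range enclosed the control range. Its log2 difference was -0.27 ± 0.31 (limma, adjusted p = 0.729), with a 95% interval from -0.92 to 0.38. Acot4, known for hydrolysing succinyl-CoA and the CoA esters of dicarboxylic acids, ran from 5.27 through 6.03 to 6.33 in controls and from 4.86 through 5.58 to 6.25 after sleep deprivation. Its log2 difference was -0.29 ± 0.19 (limma, adjusted p = 0.470), with a 95% interval from -0.68 to 0.11, and 2 of 7 sleep-deprived mice were above the control mean. A dimmer probe set of Acot4 gave -0.025 ± 0.11 (limma with every probe set tested, adjusted p = 0.947).

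Acot13, a small mitochondrion-associated enzyme of the hotdog fold also named Them2, fell. Its log2 level ran from 7.96 through 8.06 to 8.31 in controls and from 7.69 through 7.75 to 7.95 after sleep deprivation, and the groups did not overlap, as was so at 3.13% of all genes. The means were 8.11 ± 0.13 and 7.79 ± 0.093 (SD, n = 7 each), with a log2 difference of -0.32 ± 0.061 (limma, adjusted p = 0.00175). In linear terms the change was 1.25-fold, beside 2.52-fold for Acot1, and the within-group SD was 0.11, beside 0.60 for Acot1.

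The other 3 measured hotdog enzymes did not pass the threshold. Acot12, the cytosolic acetyl-CoA hydrolase of liver, ran from 9.67 through 9.78 to 9.94 in controls and from 9.62 through 9.90 to 10.07 after sleep deprivation, with 6 of 7 sleep-deprived mice above the control mean. Its log2 difference was 0.092 ± 0.061 with a 95% interval from -0.036 to 0.22 (limma, adjusted p = 0.476). Acot7, a cytosolic enzyme best known from brain, was between 5.29 and 5.60 in controls and between 5.36 and 5.71 after sleep deprivation, a difference of 0.068 ± 0.069 (adjusted p = 0.683). Acot9, a mitochondrial enzyme, was between 3.62 and 4.64 in controls and between 3.82 and 4.84 after sleep deprivation, a difference of 0.079 ± 0.16 (adjusted p = 0.869). Intervals for Acot12 and Acot7 reached no further than 0.22 on the log2 scale, whereas that of Acot9 ran from -0.26 to 0.42.

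**Figure D2:**
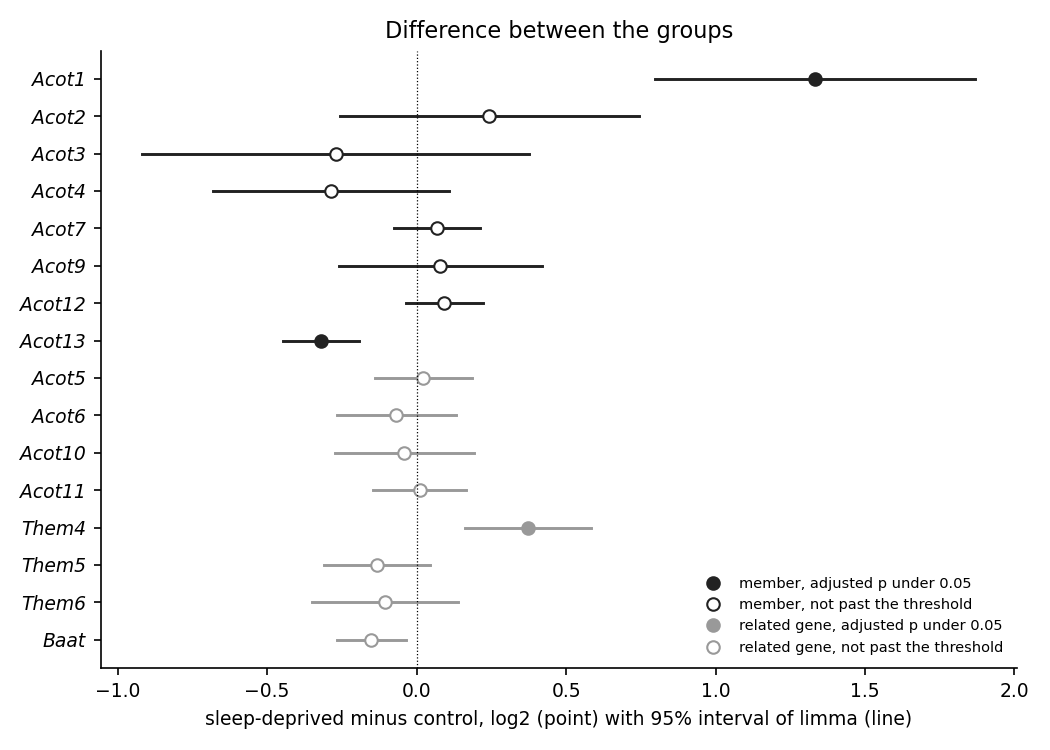
Difference between sleep-deprived and control mice on the log2 scale (horizontal axis) for the 8 measured genes and 8 related thioesterase genes (vertical axis), with limma's 95% intervals. Acot1 (1.33), Acot13 (-0.32) and Them4 (0.37) passed the threshold, and the widest interval is that of Acot3.

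A gene that passed and 1 that did not need not differ from each other, so the change of each gene relative to another was tested within mice. For each of the 28 pairs of measured genes, the log2 ratio of the pair in each mouse was compared between the groups (exact permutation test over 3432 arrangements, two-sided, adjusted over the 28 pairs). Acot1 changed unequally to each of the other 7 genes. Its ratio to Acot4 went from 0.65 ± 0.27 in controls to 2.27 ± 0.25 after sleep deprivation (SD, n = 7 each), a log2 difference of 1.62 ± 0.14 (SE, exact p = 0.000583, the smallest this design can give, adjusted p = 0.00408). The ratio to Acot3 differed by 1.60 ± 0.17 and that to Acot2 by 1.09 ± 0.18, with the same exact and adjusted p. In these 3 ratios no sleep-deprived mouse overlapped a control, mouse 2 included, although the level of Acot1 itself in mouse 2 lay within the control range.

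**Figure D3:**
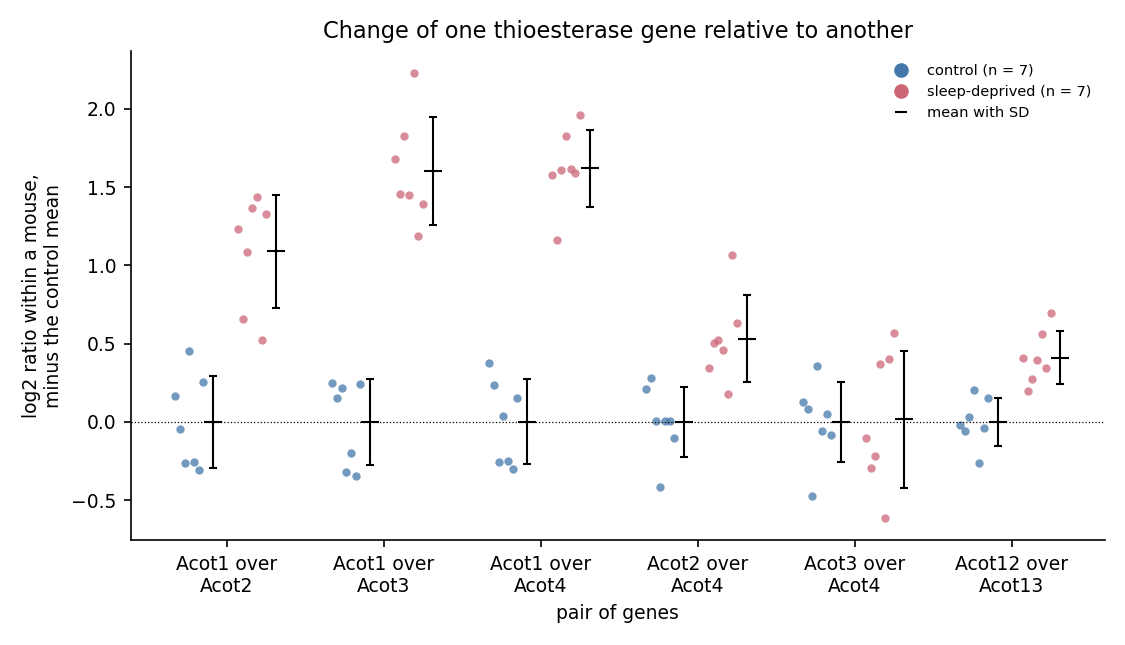
Log2 ratio of 1 thioesterase gene to another within each mouse, after subtracting the control mean (vertical axis), for 6 pairs (horizontal axis), with the group mean and SD. The ratios of Acot1 to Acot2, Acot3 and Acot4 do not overlap between the groups, and those of Acot3 to Acot4 do.

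Acot2 also moved apart from its peroxisomal neighbours. Its ratio to Acot4 differed by 0.53 ± 0.14 (exact permutation p = 0.00175, adjusted p = 0.00544) and was above the control mean in 7 of 7 sleep-deprived mice. All ratios with Acot4 used its brighter probe set, at -0.29, while the dimmer was at -0.025 and its own ratios were not tested. The ratio of Acot2 to Acot3 differed by 0.51 ± 0.19 (exact permutation p = 0.0169, adjusted p = 0.0430), which did not hold in 10 of 14 repeats without 1 mouse (adjusted p up to 0.0860). The ratio of Acot3 to Acot4 differed by 0.016 ± 0.19 (exact permutation p = 0.931, adjusted p = 0.964). Outside the cluster, Acot12 and Acot7 each changed unequally to Acot13, by 0.41 ± 0.087 and 0.39 ± 0.072 (exact permutation p = 0.00117 and adjusted p = 0.00408 for both). The ratio of Acot9 to Acot13 differed by a like 0.40 ± 0.21 but did not pass (exact permutation adjusted p = 0.158). Nor did the ratios of Acot2, Acot3 and Acot4 to Acot13 pass (exact permutation adjusted p from 0.148 to 0.964). In all, 11 of the 28 pairs passed.

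In the sleep-deprived group the 4 neighbours varied together from mouse to mouse, while the picture in controls, given below, was less clear. Sleep-deprived mouse 2 was the lowest of its group in all 4 genes, and mice 10 and 13 held the highest values in all 4. In the sleep-deprived group Pearson's r between pairs of the 4 genes lay between 0.856 and 0.965 (n = 7, exact permutation test over pairings, adjusted p from 0.00476 to 0.0185 over 12 relations in both groups). Spearman's rho lay between 0.786 and 0.964 (exact permutation adjusted p from 0.0270 to 0.0720). Without the 2 mice farthest from the median, r was still between 0.812 and 0.969.

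In the control group r lay between 0.770 and 0.957 (n = 7, exact permutation adjusted p from 0.00714 to 0.0575) and rho between 0.464 and 0.857 (exact permutation adjusted p from 0.0408 to 0.302). Control mouse 8 was the lowest of its group in all 4 genes. Without the 2 mice farthest from the median, r was 0.953 for Acot3 with Acot4 but between -0.009 and 0.556 for the other pairs. Pearson's r of those pairs thus depended on which mice were kept. Leaving out the farthest mice also narrows the range of levels, and r over the 5 left was not tested. Signal shared between close copies and RNA of the same mouse are common to these points.

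**Figure D4:**
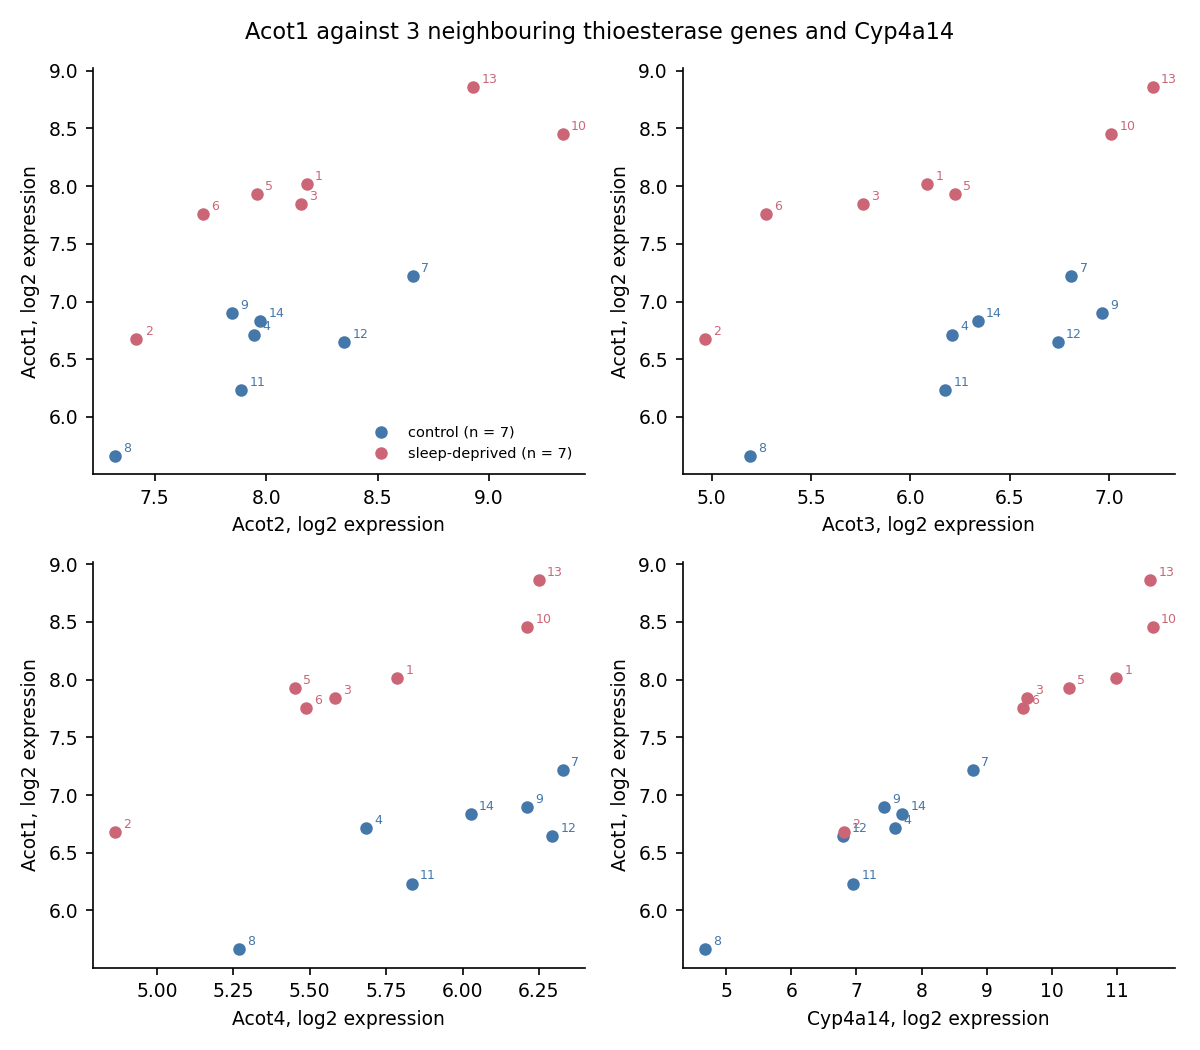
Log2 level of Acot1 (vertical axes) against those of Acot2, Acot3, Acot4 and Cyp4a14 (horizontal axes), each point being 1 mouse with its number. Against the 3 neighbours the sleep-deprived mice lie above the controls at like values on the horizontal axis, whereas against Cyp4a14 both groups lie along 1 band.

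The genes that varied most like Acot1 between mice, once the group means were subtracted, were Cyp4a14 (r = 0.954 over 14 mice), a fatty acid omega-hydroxylase and PPARA target, Wrnip1 (0.934), Hacl1 (0.929), which shortens branched fatty acids in peroxisomes, Acot4 (0.922) and Cpt2 (0.920), which reforms acyl-CoA inside mitochondria. These are the highest of all named genes and are given as a description with no test. The log2 level of Cyp4a14 ran from 4.67 through 7.42 to 8.79 in controls and from 6.81 through 10.26 to 11.55 after sleep deprivation, a difference of 2.91 ± 0.62 (limma, adjusted p = 0.00439). Its lowest sleep-deprived value was that of mouse 2 and its lowest control value that of mouse 8, the same mice as for Acot1. Cyp4a14 ranked first by r with Acot1 over these same values, so the shared lowest mice follow in part from that ranking. Hacl1 (0.15 ± 0.10, adjusted p = 0.481), Cpt2 (0.16 ± 0.056, adjusted p = 0.0972) and Wrnip1 (0.20 ± 0.099, adjusted p = 0.264) did not pass limma's test between the groups. Of the other measured thioesterases, Acot3 had r = 0.907 with Acot1, Acot2 0.839, Acot12 0.836, Acot9 0.663 and Acot7 0.080. A high r with Acot1 was thus not limited to its neighbours on chromosome 12.

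The genes that varied most like Acot13 were Suclg2 (r = 0.881 over 14 mice, group means subtracted), a subunit of the mitochondrial succinyl-CoA synthetase, Abracl (0.880), Olfr725 (0.868), Plekha8 (0.853) and Anxa5 (0.839). Suclg2 fell by 0.20 on the log2 scale (SE 0.045, limma, adjusted p = 0.00592), and the other 4 did not pass. The r of Acot13 with Acot1 was 0.18.

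Of 14 other thioesterases and related hydrolases outside the 9 genes, 1 was higher and 1 lower (limma; 1 higher and 3 lower at an unadjusted p under 0.05), beside 8.5% of all genes. The rise was that of Them4, a hotdog thioesterase of mitochondria, by 0.37 ± 0.10 (adjusted p = 0.0229), and the fall that of Hibch, the hydrolase of valine breakdown, at -0.21 ± 0.055 (adjusted p = 0.0183). The last neighbours in the chromosome 12 cluster, Acot5 and Acot6, had means of 2.27 and 2.90 in controls and differences of 0.023 ± 0.078 and -0.068 ± 0.096 (adjusted p = 0.926 and 0.795). Baat, the bile acid conjugating enzyme related to the type I thioesterases, was at -0.15 ± 0.055 (adjusted p = 0.102).

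The acyl-CoA synthetases, which form acyl-CoA from fatty acid and coenzyme A, were lower where they passed the test. Of 20 measured, 0 were higher and 5 lower (limma; 1 higher and 6 lower at an unadjusted p under 0.05), with a median difference of -0.058. The 5 calls are 25.0% of the list, beside 8.5% of all genes called either way and 4.62% called lower. The medium-chain synthetase Acsm5 was at -0.61 ± 0.062 (adjusted p = 2.98e-06), Acsm1 at -0.26 ± 0.046, the bile acid and very long-chain synthetase Slc27a5 at -0.22 ± 0.040 and the acetyl-CoA synthetase Acss2 at -0.53 ± 0.12 (adjusted p = 0.00756). Genes of coenzyme A synthesis and breakdown were likewise lower where they passed, with 0 of 17 higher and 5 lower (limma; 0 higher and 8 lower at an unadjusted p under 0.05), or 29.4% of the list beside 8.5% of all genes. Among these were the ectonucleotidase Enpp3 (-0.44 ± 0.068), the peroxisomal CoA diphosphatase Nudt7 (-0.40 ± 0.088), the pantothenate transporter Slc5a6 (-0.31 ± 0.070) and Pank1, a kinase that starts coenzyme A synthesis (-0.16 ± 0.046, adjusted p = 0.0342).

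Genes that handle acyl-CoA in peroxisomes, where Acot3, Acot4 and Acot8 act, went both ways. Of 21 measured, 4 were higher and 5 lower (limma; 5 higher and 7 lower at an unadjusted p under 0.05), with a median difference of -0.056. These calls are 42.9% of the list, beside 8.5% of all genes. The branched-chain oxidase Acox2 (0.47 ± 0.069, limma, adjusted p = 0.000137) and the peroxisome division factor Pex11a (0.62 ± 0.092) rose. Amacr, a racemase of branched acyl-CoA, was at -0.46 ± 0.054 and the acyl-CoA transporter Abcd3 at -0.31 ± 0.043.

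PPARA target genes outside the thioesterases were higher in 7 of 26 cases and lower in 1 (limma; 15 and 2 at an unadjusted p under 0.05), with a median difference of 0.15. The calls are 30.8% of the list, beside 8.5% of all genes, and Pex11a is counted here and in the peroxisomal list. For this list as for the others, the 8.5% counts dim genes as well. The lipid droplet proteins Plin5 (1.54 ± 0.12) and Cidec (1.33 ± 0.17), the lipase inhibitor Angptl4 (0.67 ± 0.095) and the hormone gene Fgf21 (1.37 ± 0.22, adjusted p = 0.000402) were among those that rose. Pdk4, which inhibits pyruvate dehydrogenase, differed by 0.70 ± 0.27, short of the threshold (adjusted p = 0.138). The transcript of the receptor itself, Ppara, was between 9.13 and 9.58 in controls and between 9.13 and 9.59 after sleep deprivation, a difference of -0.019 ± 0.079 with a 95% interval from -0.18 to 0.15 (adjusted p = 0.941).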

How the data were processed

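Liver RNA of 14 mice, 100 ng each, was labelled with the Affymetrix WT PLUS kit, per the labels' protocols. RMA turned the scans into the log2 values deposited by the authors, 1 per probe set, per the submitters' processing notes, which name no version or filter. RMA draws differences of dim genes toward 0. Arrays have no read depth, and precision is limited by having 7 of them in a group.

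Groups came from the titles, which number the samples without repeats across groups. Each sample was taken as 1 mouse, and if that does not hold the p-values measure only technical spread. Of 41345 probe sets, 23521 had 1 symbol, 1814 several and 16010 none, and 23328 were matched to RefSeq by gene ID. All 22180 genes were fitted with limma 3.58.1 (R 4.3.3) by lmFit, and two-sided p-values came from eBayes with a trend on intensity, called at an adjusted p under 0.05. On simulated data, 87% of 100 genes changed by 0.5 and 98% of 100 changed by 1 were recovered, with 13 false calls (6.57% of calls). The changed genes were drawn at random from all genes. These shares therefore do not describe genes as variable between mice as Acot1 to Acot4. Ratios and correlations used exact permutation tests.

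The members and gene lists were chosen with earlier results of these data known. Named genes were all members, up to 4 per list with the smallest adjusted p past the threshold, Ppara, Cyp4a14, Pdk4, Fgf21 and Angptl4, and the 5 genes most like each member that passed, leaving out predicted models, clone names and small RNAs. Outside this rule, Acot5, Acot6, Acot10, Acot11, Them5, Them6 and Baat are given or plotted as relatives, chosen after their values were seen. A comparison of protein sequences was planned and is not reported here.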

Additional observations from a re-analysis of the deposited data

How the results depend on the processing

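The calls of Acot1 and Acot13 held under all 9 other settings of the fit and in all 14 fits that left out 1 mouse. Settings that changed only the eBayes step, the genes fitted or the probe sets could not move these differences. Each of these genes has 1 probe set. The difference of Acot1 lay between 1.18 and 1.59 and that of Acot13 between -0.345 and -0.285. With the title number as a covariate Acot2 was at 0.51 (limma, adjusted p = 0.234), Acot4 at -0.058 (adjusted p = 0.913) and Acot3 turned to 0.093 (adjusted p = 0.916). Acot9 turned to -0.00052 without control mouse 8 and to -0.032 without sleep-deprived mouse 13, and reached 0.17 without control mouse 12. Leaving out 1 mouse moved Acot2 between 0.062 and 0.38, Acot3 between -0.46 and -0.086 and Acot4 between -0.40 and -0.15, none of them past the threshold. Asking for a log2 difference of at least 0.5 as well left 391 genes (186 higher, 205 lower) and 0 members lower, since Acot13 is at -0.32. Leaving out 1 mouse gave 1541 to 1893 genes (679 to 868 higher, 862 to 1054 lower), 1 member higher and 1 lower each time, and 10 to 12 unequal pairs. Acot5 and Acot6 lie low on the scale, where RMA compresses differences. No paired analysis was possible because the groups share no sample number.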

Other observations

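Among receptors and regulators linked to these genes, 2 of 16 were higher and 4 lower after sleep deprivation (limma; 5 and 4 at an unadjusted p under 0.05), or 37.5% of the list beside 8.5% of all genes. Lpin1, a phosphatidate phosphatase that also acts as a coactivator of PPARA, rose by 1.57 ± 0.12 (adjusted p = 1.15e-07). Pparg, the lipid-storage receptor, was at -1.02 ± 0.17, the glucocorticoid receptor gene Nr3c1 at -0.22 ± 0.055 and the coactivator Ppargc1b at -0.28 ± 0.075 (adjusted p = 0.0214).

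No mouse stood apart by Dixon's test in any of the 16 groups of 7 values of the measured thioesterases, including mouse 2 in Acot1.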
